A study of Hordeum vulgare with 2 samples.

Results

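Listed cut sites of the microRNA families miR397, miR398, miR408 and miR528 were described in 2 degradome libraries of barley shoots, 1 from the cultivar ZD9 and 1 from the cultivar XZ153. A record was taken as a member when the name of its small RNA held 1 of these 4 family numbers, in mature (miR) or hairpin-arm (MIR) form. This gave 568 of 17485 records in ZD9 and 1355 of 40424 in XZ153, or 3.25% and 3.35% of the lists. The study's title names Tibetan wild barley, cultivated barley and low potassium stress, and its seedlings received potassium at 0.01 mM or 1 mM. The labels give both libraries the same growth and treatment text and do not say which potassium level either library came from, so the libraries differ by cultivar in the labels and possibly by treatment. There is 1 library per cultivar, so no difference between the cultivars was tested and none has a replicate check.

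A degradome library captures the 5′ ends of uncapped RNA fragments. A microRNA guides Argonaute to cut a paired transcript opposite the small RNA's base 10, and the downstream fragment then starts at that base. Members of these 4 families are known in plants for rising when copper is scarce, through an SPL7-type transcription factor in Arabidopsis, and for removing transcripts of copper proteins. Known targets are laccase transcripts for miR397, Cu/Zn superoxide dismutase and its copper chaperone for miR398, plantacyanin-type blue copper proteins and laccases for miR408 and, in rice, ascorbate oxidase for miR528, which is found in monocots. Which listed barley genes encode such proteins was not analysed here, because the gene table used holds none of the listed gene IDs. The name "copper-linked" therefore rests on this background and not on these data.

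The 24 small RNA names of the families, 12 mature and 12 hairpin-arm, all had records in both libraries. Their sequences are those in the deposited tables, given 5′ to 3′ with the seed, bases 2 to 8, in capitals. The first 3 show the shared seed UGAGUGC of miR397, and the fourth, from the other hairpin arm, supplied the supported miR397 site. The next 3 are the mature miR398 forms, which share 10 bases from base 5 on. The last of these has another seed, GUUUUCU in place of GUGUUCU.
hvu-MIR397a-p5: uUGAGUGCagcguugaugaac
mes-miR397_L-1R+2: uUGAGUGCagcguugaugaau
bdi-miR397b-5p_L-1R+4: uUGAGUGCagcguugaugaaccca
hvu-MIR397a-p3: uCACCGGCgcugcacgcaaug
osa-miR398b_1ss20TC: uGUGUUCUcaggucgcccccg
aqc-miR398b_R-1: uGUGUUCUcaggucgccccu
osa-miR398a_1ss4GT: uGUUUUCUcaggucaccccuu

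The miR408 names fell into 3 kinds. The miR408-3p type with seed GCACUGC had 4 names, the miR408-5p type with seed AGGGAUG had 1, and 3 hairpin-arm names were 95.7% to 100% C or U and have no seed in common with either. The miR528-3p names share an 11-base stretch with the miR408-3p type, so both families can align to the same transcript bases. The miR528-5p form shares no such stretch with miR408. The set shows the forms whose sites are described below.
osa-miR408-3p_L-1: uGCACUGCcucuucccuggc
osa-miR408-3p_L-1_1ss14TA: uGCACUGCcucuacccuggc
bdi-miR408-5p_2ss10AC19TA: cAGGGAUGgcgcagagcaagg
aly-MIR408-p3_1ss14CT: uCUCUCUCucucuuucucccu
osa-MIR408-p5_2ss6CA17TC: cCUCUAUCucucucucccucucu
osa-miR528-5p: uGGAAGGGgcaugcagaggag
bdi-miR528-3p: cCUGUGCCugccucuuccauu
bdi-MIR528-p3_1: uGCCUGCCucuuccauuccug

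The stretch that miR408-3p and miR528-3p share is CUGCCUCUUCC, which begins at base 5 of osa-miR408-3p_L-1 and at base 8 of bdi-miR528-3p. In osa-miR408-3p_L-1_1ss14TA the substitution U13A, counted from the 5′ end of osa-miR408-3p_L-1, shortens it to CUGCCUCU.

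The sites on which the results turn are given next, each as the transcript bases 5′ to 3′ from the deposited alignment, with capitals for bases that are unpaired in the deposited structure. Paired bases here include G-U pairs. The first is the only supported ZD9 site, the next 3 are the supported XZ153 sites, the fifth has the lowest p-value of the families, and the last 2 are the miR398 and miR528 sites that XZ153 lists on 1 gene.
HORVU2Hr1G021110 (miR398): GggggguCaccugagaUcaca
HORVU7Hr1G098580 (MIR397a-p3): GCCugcugcggcgccggugg
HORVU3Hr1G010800 (miR408-5p): AcuugGcugcgccauccuug
HORVU7Hr1G055410 (miR408-5p): ccGgcucCGgcgccaucccug
HORVU5Hr1G070040 (miR408-3p): gccagggCagaggcagugca
HORVU7Hr1G060130 (miR398): UGCgggugaccugggaaaca
HORVU7Hr1G060130 (miR528-5p): cuGccucugcCugcccuuucca

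Each record pairs 1 small RNA name with 1 transcript position, and each position is listed under 1 name only, so a site that several forms could pair with appears once. The Allen score is a mismatch penalty, lower for better pairing. The minimum free energy (MFE) ratio sets the site's duplex against a perfect one and was at least 0.65 in both lists. The category ranks the reads at the site among the positions of its transcript, with 0 for the highest position and 4 for a single read. The deposited p-value is unadjusted and describes 1 library. Support was counted where the category was 0, 1 or 2 and the p-value did not exceed 0.05, and isoforms were merged into pairs of family and gene. The ZD9 list carries values only up to transcript HORVU2Hr1G036110.5, so 505 of its 568 member records have values, on 444 transcripts of 228 genes. The XZ153 members lie on 1213 transcripts of 741 genes, and 263 records on 146 genes fall in the range of transcript IDs that both lists cover, called the shared range. Raw reads were used for ZD9 only, the depth of both libraries is unknown, and the reads behind an XZ153 site are known only through its category. Fewer cut molecules and a shallower library therefore cannot be told apart for a site that 1 list lacks.

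Few cut sites of these families were supported. In ZD9, 2 of 505 records (0.396%) were supported, both on the 1 pair of miR398 with HORVU2Hr1G021110. In the whole XZ153 list 3 of 1355 records (0.221%) were supported, on 1 gene for miR397 and 2 for miR408. None was supported for miR528 in either library, for miR397 and miR408 in ZD9, or for miR398 in XZ153. Over all small RNA names 0.695% of ZD9 and 0.675% of XZ153 records were supported, so the members' shares lie below those of the lists. Their exact 95% intervals, 0.0480% to 1.42% in ZD9 and 0.0457% to 0.646% in XZ153, include the ZD9 list's share and end below that of the XZ153 list. Counted as pairs of family and gene, 1 of 256 (0.391%) was supported in ZD9 and 3 of 810 (0.370%) in XZ153, where all names gave 0.337% and 0.615%. The intervals of these pair shares, 0.00989% to 2.16% in ZD9 and 0.0764% to 1.08% in XZ153, include the share over all names in both libraries. In the shared range XZ153 had 0 supported among 263 member records (exact 95% interval up to 1.39%) on 164 pairs (up to 2.22%), against 0.910% of records and 0.755% of pairs over all names. The intervals cover counting error only, since isoforms repeat a cut and reads amplified by PCR are not independent molecules.

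Most listed sites of the families were weak positions on their transcripts. Categories 0 to 2 held 95 of 505 member records in ZD9 (18.8%, exact 95% interval 15.5% to 22.5%) and 239 of 1355 in XZ153 (17.6%, 15.6% to 19.8%). Over all names these categories held 23.3% and 19.1% of records. Within the families the share ran in ZD9 from 14.7% for miR398 (4.95% to 31.1%) to 22.3% for miR397 (15.0% to 31.2%). In XZ153 it ran from 12.1% for miR408 (9.46% to 15.0%) to 25.5% for miR398 (17.4% to 35.1%). The order of the families thus differed between the 2 sets of records, and in ZD9 the intervals of all 4 families overlap. These sets are unlike, because the XZ153 shares are over the whole list and the ZD9 shares over the shared range only. In the shared range all 11 miR398 records of XZ153 were category 3 or 4. Category 0, the top position of a transcript, held 4 member records in ZD9 (0.792%, 0.216% to 2.02%) and 16 in XZ153 (1.18%, 0.676% to 1.91%), against 1.70% and 1.49% over all names. In the shared range XZ153 had 2 (0.760%, 0.0922% to 2.72%), against 1.40% over all names.

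**Figure D1:**
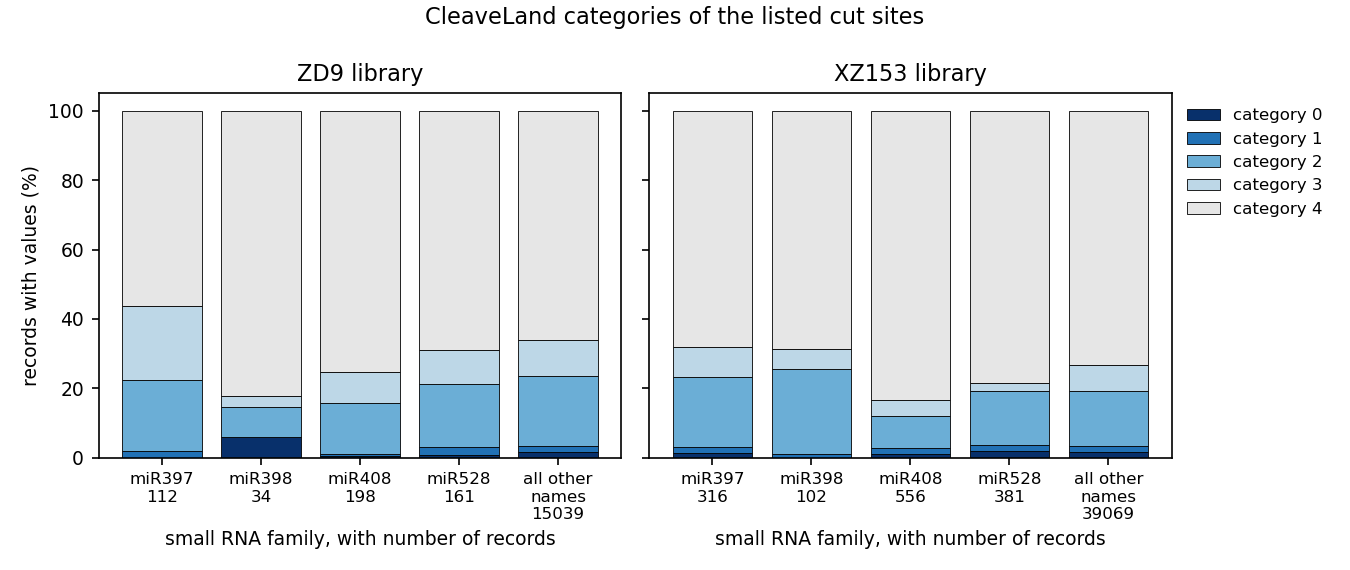
Share of records in each CleaveLand category (percent of records with values, stacked from category 0 at the bottom to 4 at the top) for each family and for all other names, in ZD9 on the left and XZ153 on the right, with the number of records under each bar. Category 4, single reads, is the tallest segment of every bar, from 56.3% for miR397 to 82.4% for miR398 in ZD9.

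The members had the same median Allen score as the other names but fewer well-paired records in XZ153. The median was 8.5 for the members and 8.5 for all other names, in ZD9 and in XZ153 alike. An Allen score of at most 4 was reached by 13 member records in ZD9 (2.57%, 1.38% to 4.36%) against 3.72% of the records of other names, and by 21 in XZ153 (1.55%, 0.962% to 2.36%) against 3.82% (3.63% to 4.01%). Of these well-paired records, 11 in each library belonged to the miR408 hairpin-arm names made of C and U. The deposited p-value rises with the alignment's rank for its small RNA and with the share of transcript positions in the record's category. The rank, taken from the p-value within a category, followed the MFE ratio within a name. Spearman's rho of the rank and the ratio lay between -1 and -0.953 over the 20 sets of 1 name in 1 library with enough records. With the Allen score, rho ran from -0.644 to 0.830. All of these sets are from XZ153 except that of hvu-MIR397a-p3 in ZD9, so the ZD9 ranks of miR398 names were not covered.

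**Figure D2:**
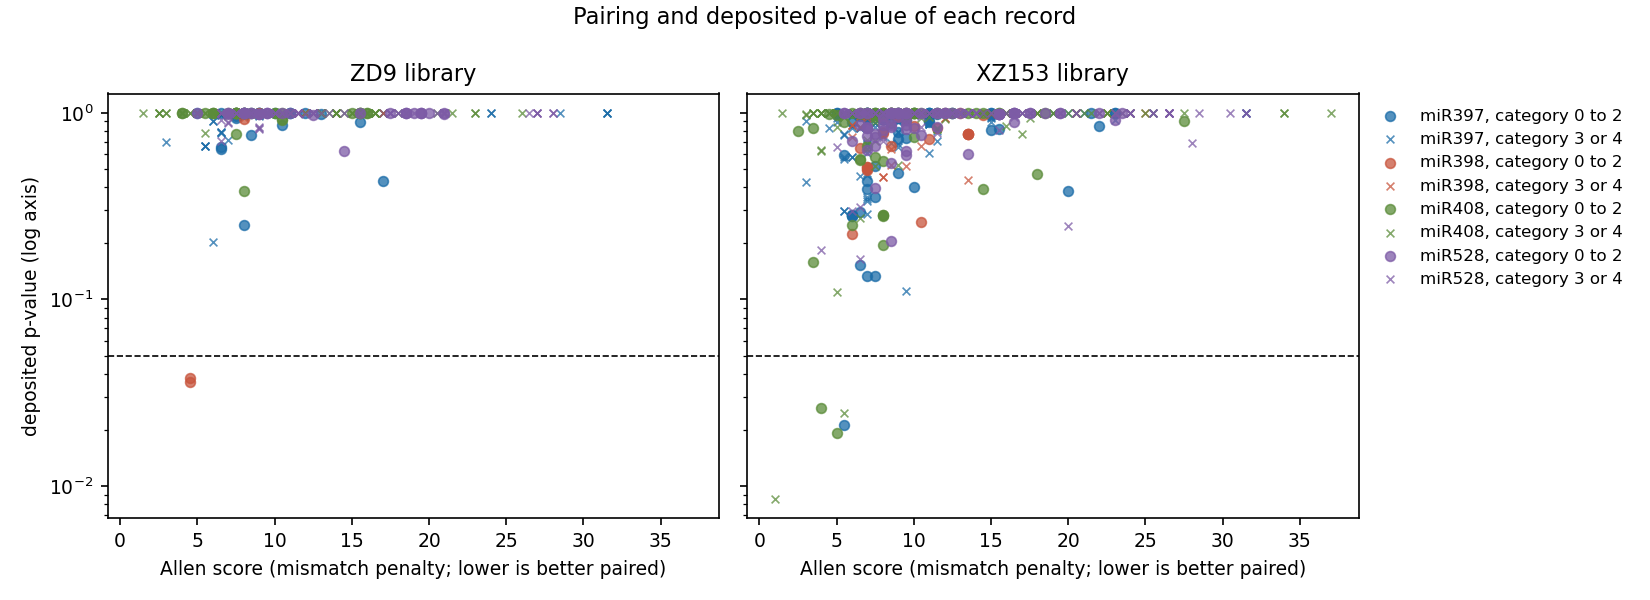
Allen score (x axis) against the deposited p-value (y axis, log scale) of every member record, in ZD9 on the left and XZ153 on the right, with circles for categories 0 to 2, crosses for categories 3 and 4, and a dashed line at 0.05. Below the line lie 2 circles of miR398 in ZD9, and 3 circles of miR397 and miR408 with 2 crosses of miR408 in XZ153.

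The supported ZD9 site of miR398 carried the most reads of the 4 families. On HORVU2Hr1G021110, osa-miR398b_1ss20TC marked position 290 of isoform 1 with 49 reads and position 115 of isoform 3 with 41 reads, both category 0. Both records have the same 21 bases, an Allen score of 4.5 and an MFE ratio of 0.742, and were counted as 1 cut. The deposited p-values were 0.0381 and 0.0362. These are close to the limit of 0.05, and the alignments ranked 288 and 273 among those of that small RNA.

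The pairing at this site has 17 Watson-Crick pairs and 1 G-U pair, at small RNA base 15. The bases at small RNA positions 5, 14 and 21 are mismatched, so 1 mismatch lies in the seed. The other mature forms were set against the same bases by script. The form aqc-miR398b_R-1 had 16 Watson-Crick pairs, 2 G-U pairs and mismatches at positions 5 and 14, and osa-miR398a_1ss4GT also had 16 and 2, with mismatches at positions 4, 5 and 14. All 3 forms thus share the mismatch in the seed.

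The other listed sites on this gene held few reads. Positions that pair with no listed small RNA are absent from the lists, so reads elsewhere on the gene are unknown. ZD9 lists 11 further records on HORVU2Hr1G021110 under names outside these families, on isoforms 1, 3 and 6, with 1 to 3 reads and none in category 0. The nearest of them on isoform 1 lies at position 665. Of the 15544 ZD9 records with values, 29 had more than 49 reads, and of its 264 category 0 records 6 did. XZ153 lists 7 records on 4 transcripts of this gene, all under names outside these families, 5 of them in category 4 and none at the miR398 site. The gene was thus read in both libraries and the cut was listed in ZD9 alone.

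No other miR398 record in ZD9 exceeded 3 reads. The family had 34 records there on 22 genes, 28 of them single reads, with 128 reads in all, the 49 and 41 on HORVU2Hr1G021110 included. The next genes by reads were HORVU0Hr1G000490 and HORVU1Hr1G089830, each with 3 reads of osa-miR398a_1ss4GT in category 2, Allen scores of 7.5 and 9 and p-values close to 1. Under the hairpin-arm name ata-MIR398g-p5 ZD9 had 1 record and XZ153 had 7, all in category 4.

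In XZ153 the family had 102 records on 60 genes and no category 0 site. Its lowest p-value, 0.226, belonged to HORVU7Hr1G060130, where osa-miR398a_1ss4GT marked position 776 of isoform 2 in category 2 with an Allen score of 6. The same bases on isoform 3, at position 411, were category 4 with a p-value of 0.746. The best-paired XZ153 site by Allen score, 5.5, was that of aqc-miR398b_R-1 on HORVU7Hr1G111120, in category 4 with a p-value close to 1.

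The gene HORVU7Hr1G060130 was also listed under miR528. At position 290 of isoform 1, osa-miR528-5p had an Allen score of 4, the lowest of its family in XZ153, with category 4 and a p-value of 0.183. The site bases differ from those listed under miR398, as the sequences above show. Both records are single positions of 1 library, neither passed the limit, and the gene's ID falls after the last ZD9 record with values. Over all member genes, 24 of 228 in ZD9 and 66 of 741 in XZ153 were listed under at least 2 of the 4 families. No such share was counted for other sets of families, so these numbers are not read as a trait of the 4.

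For miR397 the supported site came from a hairpin arm. In XZ153, hvu-MIR397a-p3 marked position 656 of HORVU7Hr1G098580 isoform 3 in category 1, with a p-value of 0.0213 and an Allen score of 5.5. The same 20 bases on isoform 2, at position 866, were category 4 with a p-value of 0.565, so support rested on 1 of 2 listed isoforms. The unpaired transcript bases all lie at the 5′ end of the site. The small RNA has 21 bases against the 20 of the site, and its own unpaired bases are not shown. These 2 are the only records of XZ153 on this gene, which lies after the last ZD9 record with values.

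Mature miR397 names, whose seed is the one known to pair with laccase transcripts in other plants, had 19 records in ZD9 and 71 in XZ153, and none was supported. Their lowest p-value was 0.763 in ZD9. In XZ153 it was 0.134, for mes-miR397_L-1R+2 on HORVU5Hr1G050570 in category 1 with an Allen score of 7. The hairpin-arm name hvu-MIR397a-p5 has the same seed, with 2 records in ZD9 and 7 in XZ153, and none was supported. Its lowest Allen score was 4.5, on HORVU2Hr1G033240 in XZ153, in category 4 with a deposited p-value of 0.826. The one category 0 record of a mature miR397 name, on isoform 3 of HORVU6Hr1G015410 in XZ153, had an Allen score of 10 and a p-value of 0.403, and the same bases on isoforms 2 and 7 were category 4. The other 3 category 0 records of the family were under hairpin-arm names with p-values from 0.355 to 0.392.

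The lowest Allen score of miR397, 3, was reached by osa-MIR397b-p5, an 18-base name, on HORVU1Hr1G085730 in both libraries and on HORVU5Hr1G047480 in XZ153, where the p-value was 0.899. The site on HORVU1Hr1G085730 was a single read in each, category 4 on isoform 1 in ZD9 (p-value 0.697) and on isoform 8 in XZ153 (p-value 0.426). The lowest ZD9 p-value of the family, 0.203, belonged to hvu-MIR397a-p3 on HORVU1Hr1G048630 with 2 reads in category 3.

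Reads and pairing went apart at the most-read miR397 site. At position 648 of HORVU1Hr1G043910 isoform 1, hvu-MIR397a-p3 had 42 reads, and 36 records of the whole ZD9 list had more. The position was category 2, not the top of its transcript, the Allen score was 8.5 and the p-value was 0.9999. The same site was listed in XZ153 in category 3 with a p-value of 0.691. The second gene was HORVU0Hr1G004830, where mes-miR397_L-1R+2 had 4 to 10 reads on 6 isoforms with an Allen score of 9.

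For miR408 the supported sites were those of the 5p form. In XZ153, bdi-miR408-5p_2ss10AC19TA marked position 577 of HORVU3Hr1G010800 isoform 7 in category 1, with a p-value of 0.0264 and an Allen score of 4. The same bases on isoforms 1 and 6 were category 4 with p-values of 0.629 and 0.624. The second site lay at position 1221 of HORVU7Hr1G055410 isoform 5, in category 2 with a p-value of 0.0193 and an Allen score of 5. On isoform 2, at position 1537, it was category 4 with a p-value of 0.110. At each of the 2 genes 1 isoform of several carried the support. The 5p form had 1 record in ZD9 and 29 in XZ153, and both genes lie after the last ZD9 record with values.

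The lowest p-value of the families belonged to the miR408-3p form but to a single read. At position 731 of HORVU5Hr1G070040 isoform 1, osa-miR408-3p_L-1_1ss14TA had an Allen score of 1 and an MFE ratio of 0.929, with 19 Watson-Crick pairs and 1 mismatch at small RNA position 13. The form osa-miR408-3p_L-1 pairs with the same bases equally, with 19 pairs and a mismatch at the same position, because the substitution U13A lies where neither form pairs. In XZ153 the record had category 4, a p-value of 0.00858 and an alignment rank of 2, so it passed the p-value limit and not the category. The gene has 2 records in XZ153, both in category 4. A further record of the same name passed the p-value limit outside categories 0 to 2, at position 325 of HORVU7Hr1G115040 isoform 1, in category 3 with an Allen score of 5.5 and a p-value of 0.0247. This gene was singled out after its values were seen.

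Within the ZD9 list the miR408-3p type had 117 records on 65 genes and none had an Allen score of at most 4. Its lowest p-value, 0.381, was at position 3223 of HORVU1Hr1G075270 isoform 3, under ata-MIR408-p3_2ss18GT20CT with 2 reads in category 1. On isoform 10 the same bases had 1 read in category 4. Category 0 records under mature miR408 names were found in XZ153 alone, for miR408-5p on HORVU6Hr1G029190 (p-value 0.197) and miR408-3p on HORVU3Hr1G006940 (p-value 0.549), both with an Allen score of 8.

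The miR408 hairpin-arm names made of C and U gave 11 of the 13 well-paired member records in ZD9 and 11 of the 21 in XZ153, and no supported record. Their sites were rich in purines, with a median of 89.9% A or G in ZD9 and 91.3% in XZ153. They had 80 records on 45 genes in ZD9 and 224 on 135 genes in XZ153. An Allen score of at most 4 was thus reached by 11 of 80 in ZD9, on 6 genes, and by 11 of 224 in XZ153, on 10 genes. Among the records of other names the shares were 3.72% and 3.82%. The 11 ZD9 records with an Allen score of at most 4 had a lowest p-value of 0.996, and 9 of them were single reads. The 11 in XZ153 had p-values from 0.160 upward, and 8 were in category 4. The lowest Allen score in ZD9, 1.5, belonged to aly-MIR408-p3_1ss14CT at position 1117 of HORVU1Hr1G093350 isoform 1, a single read in category 4. Its site is a run of a repeated pair of bases, and the position with 8 reads on HORVU1Hr1G075560, under aly-MIR408-p3_1ss8TC, shows the same repeat.
HORVU1Hr1G093350 (aly-MIR408-p3_1ss14CT): agAgagagagagagagagaga
HORVU1Hr1G075560 (aly-MIR408-p3_1ss8TC): GAgagagagagagagAgagagag
On HORVU1Hr1G075560 the Allen score was 4, the category 2 and the p-value 0.996, so a good score with reads did not give a low p-value for this name.

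For miR528 no record came near the limit. The lowest p-value was 0.166 in XZ153, for bdi-miR528-3p at position 455 of HORVU5Hr1G050990 isoform 4, in category 3 with an Allen score of 6.5. The lowest in ZD9 was 0.628, for bdi-miR528-3p_L+1R-1 at position 324 of HORVU0Hr1G038670 isoform 4, a category 0 site of 2 reads with an Allen score of 14.5. On isoform 3 the same bases had 1 read in category 4. In XZ153 the family had 7 category 0 records among 381, where all names had 601 among 40424 (1.49%). The p-values of the 7 ran from 0.205 for HORVU2Hr1G108150 to 0.856 for HORVU3Hr1G094220 and their Allen scores from 7 to 10.5. The other 5 genes of these records were HORVU3Hr1G059390, HORVU7Hr1G118020, HORVU3Hr1G007380 and HORVU3Hr1G012850 under bdi-miR528-3p and HORVU5Hr1G100900 under bdi-MIR528-p3_1.

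Most miR528 records came from the 3p arm and not from the 5p form known to act on ascorbate oxidase in rice. The 3p arm had 4 names, which share long stretches, with 151 records in ZD9 and 366 in XZ153. The 5p form had 1 name, osa-miR528-5p, with 10 records on 4 genes in ZD9 and 15 on 8 genes in XZ153. The counts are therefore over unequal numbers of names. Of the 10 in ZD9, 6 lie on HORVU1Hr1G078140, at isoforms 1, 2, 3, 5, 6 and 7, with 1 to 3 reads and categories 2 to 4. XZ153 lists the same bases on isoforms 1 to 4 in category 4. The Allen score was 9, and the lowest p-values were 0.819 in ZD9 and 0.9995 in XZ153. The site is shown because it is the most often listed site of the mature 5p form.
HORVU1Hr1G078140 (osa-miR528-5p): UGccucugcCugccUUccuuccU
The lowest Allen score of miR528 in ZD9 was 5, for bdi-MIR528-p3_2 on HORVU1Hr1G000020, with 2 reads on isoform 1 in category 2, 1 read on isoform 4 in category 4 and p-values close to 1.

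The miR408 and miR528 names met on the same bases. Sites of both families that overlapped by at least 10 bases on 1 transcript numbered 11 pairs on 3 genes in ZD9 and 17 pairs on 9 genes in XZ153. Most of the ZD9 pairs repeat 1 cluster on isoforms of HORVU1Hr1G078410. Some pairs involve a miR408 name made of C and U, which lacks the shared stretch. Other families overlapped too, with 3 pairs of miR397 and miR408 on 1 gene in ZD9. In XZ153 there were 1 such pair, 2 of miR398 with miR408 and 1 of miR398 with miR528. On HORVU1Hr1G078410 in ZD9, isoform 4 had 11 reads at position 644 under ata-MIR408-p3_2ss18GT20CT, 2 at 643 under bdi-MIR528-p3_1, 5 at 647 under bdi-miR528-3p and 9 at 655 under bdi-miR528-3p_L+1R-1. Isoforms 2 and 3 showed the same cluster with 2 to 10 reads. The Allen scores there ran from 15.5 to 19.5, the lowest p-values were 0.998 in ZD9 and 0.995 in XZ153, and XZ153 listed the cluster in categories 2 and 4. The most-read miR408 and miR528 positions of ZD9, with 11 and 10 reads, both belong to this cluster of neighbouring positions.

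Read counts of the members in ZD9 were low outside 2 genes, and low counts were common over all names too. The 505 member records summed to 1005 reads, or 2.88% of the 34935 reads of the list, with a median of 1, and 351 records held a single read. Single reads made up 69.5% of the member records (65.3% to 73.5%) and 66.1% of the records of other names, whose median was also 1. More than 5 reads were found at 26 member records and more than 11 at 3, which are the 2 records on HORVU2Hr1G021110 and the one on HORVU1Hr1G043910. Over all names, 870 of the 15544 records with values held more than 5 reads and 273 more than 11. The families summed to 295 reads for miR397, 128 for miR398, 307 for miR408 and 275 for miR528. These sums run over records, so a cut listed on several isoforms adds its reads for each isoform. The miR528 gene with the second highest count was HORVU1Hr1G091850, with 8 reads under bdi-miR528-3p, an Allen score of 9.5 and a p-value close to 1.

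**Figure D3:**
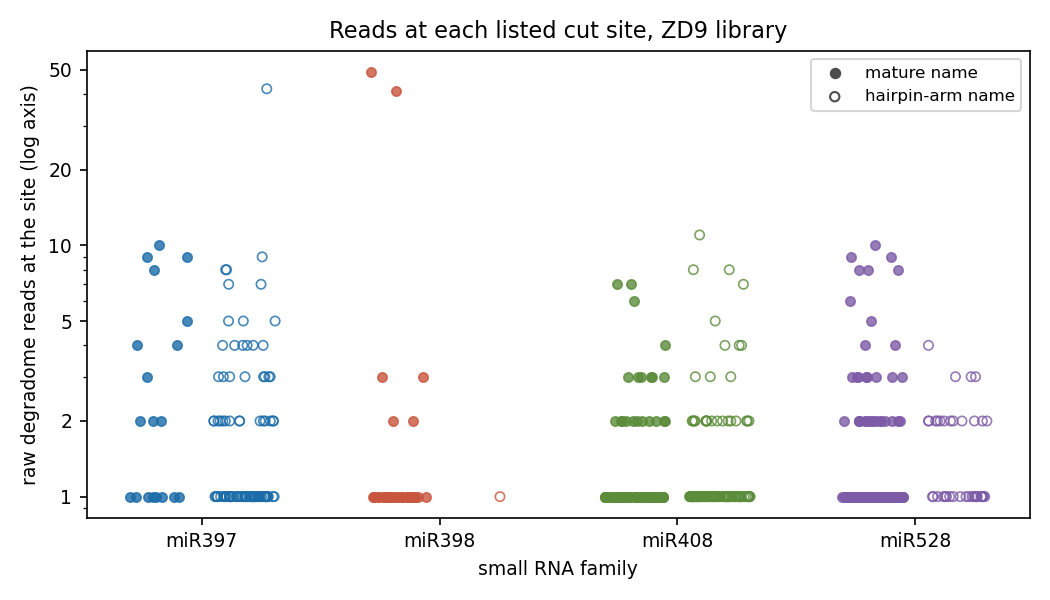
Raw degradome reads (y axis, log scale) at each ZD9 record by family, with filled circles for mature and open circles for hairpin-arm names; points are spread sideways to show overlap. The 49 and 41 reads of miR398 and the 42 reads of a miR397 hairpin-arm name stand above the rest, which hold at most 11 reads.

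Isoforms of 1 gene had the same category at most cuts and differed at others. In ZD9 114 of 286 member cuts were listed on more than 1 isoform, and the category differed between isoforms in 43 of these. In XZ153 it differed in 106 of 276 such cuts, of 901 in all. The share over all names was not counted, so this is not read as a trait of these families. The miR398 site on HORVU2Hr1G021110 was category 0 on both listed isoforms, whereas each of the 3 supported XZ153 cuts was category 4 on its other listed isoforms.

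Of the sites listed in both libraries miR397 held the largest number. In the shared range 91 member sites were listed under the same family in both, on 45 genes. This is 18.0% of the ZD9 members (14.8% to 21.7%) and 34.6% of the XZ153 members there (28.9% to 40.7%), beside 18.7% and 34.7% over all names. The number was 41 for miR397, or 36.6% of its ZD9 records (27.7% to 46.2%) and 57.7% of its XZ153 records. It was 27 for miR528 (16.8% and 36.0%), 21 for miR408 (10.6% and 19.8%) and 2 for miR398 (5.88% and 18.2%). The miR397 sites lie on 18 genes and several isoforms repeat 1 cut, among them HORVU1Hr1G041250 with 7 isoforms and HORVU0Hr1G004830 and HORVU1Hr1G062900 with 5 each. No shared site was supported in either library. The lowest p-values among them were 0.639 in ZD9, for HORVU1Hr1G043440 isoform 1, and 0.134 in XZ153, for HORVU1Hr1G077900.

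At HORVU1Hr1G077900, hvu-MIR397b-p3 had 8 reads at position 1152 in ZD9, category 2 with a p-value of 0.958, and was category 1 in XZ153. On HORVU2Hr1G019270, hvu-MIR397a-p3 had 4 reads at position 262 of isoform 2 in ZD9, and hvu-MIR397b-p5 had 8 reads 4 bases downstream. Both positions were category 3 in both libraries. The p-values for hvu-MIR397a-p3 were 0.661 in ZD9 and 0.296 in XZ153, with the same alignment rank of 1107. On HORVU1Hr1G041250 the reads in ZD9 were 1 to 4 on the shared isoforms, in categories 2 to 4. The miR408 site shared with the lowest XZ153 p-value, 0.251, was on HORVU1Hr1G001890, with 2 reads in ZD9, and that of miR528, 0.626, was on HORVU1Hr1G087740, a single read in ZD9.

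The category was the same in both libraries at 39 of the 91 shared sites, had a lower number in ZD9 at 29 and a lower number in XZ153 at 23. Both libraries had categories 0 to 2 at 12 sites, and no shared site was category 0 in either. The 2 shared miR398 sites, on HORVU0Hr1G018300 and HORVU0Hr1G023870, held 1 read each in ZD9.

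**Figure D4:**
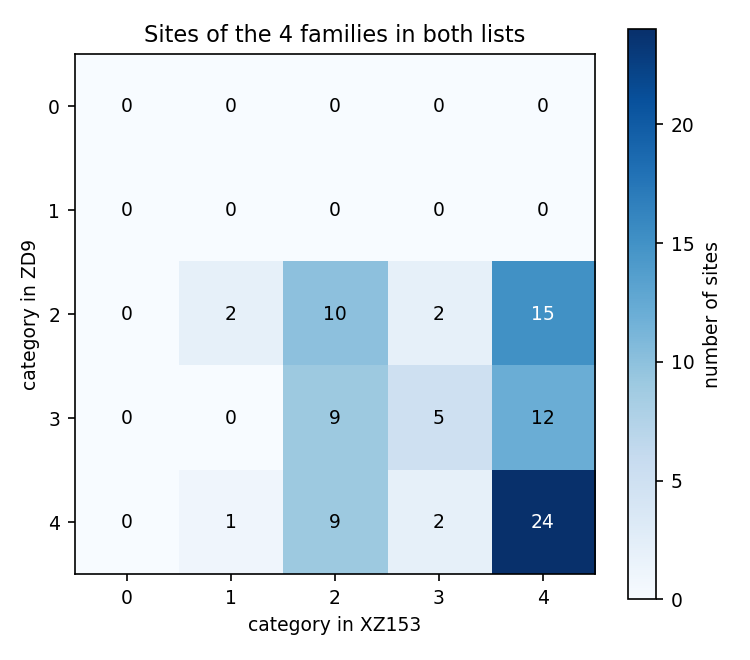
Number of member sites listed in both libraries for each combination of category in ZD9 (down the page) and in XZ153 (across), from 0 to 4. The largest cell, with 24 sites, is category 4 in both, and the row and the column of category 0 are empty.

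Recurrence rose with the reads in ZD9 for the members as for the other names. Single-read member sites recurred in XZ153 in 10.3% of cases (7.29% to 13.9%), against 10.2% for other names, and those with 3 to 5 reads in 42.3% (28.7% to 56.8%) against 38.1%. Of the 26 member sites with 6 or more reads, which lie on 14 genes, 15 were listed in XZ153 (57.7%, 36.9% to 76.6%) against 75.9% (72.9% to 78.8%) for other names. The 2 most-read positions of miR398 are among the 11 that were not.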

How the data were processed

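Degradome libraries of ZD9 and XZ153 shoots, 1 each, were made per the labels' protocols from poly(A) RNA of 20 µg total RNA, with 15 PCR cycles and 50 nt reads. The deposited tables are CleaveLand output, per the file headers. Its version, the transcript set and the build were not given in the sources used here. Per the file headers, each record holds an MFE ratio, an Allen score, a category, a p-value that the authors' run did not adjust, and, used for ZD9, the raw count of reads. A deposited ZD9 signal column of normalised reads was not used.

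Member names, pairing and counts were taken with Python 3.11.15 and pandas 2.3.3, and exact Clopper-Pearson 95% intervals with scipy 1.17.1. For each category and library, -ln(1 - p) came in whole steps (tolerance 0.02, tested up to 1000 steps), and the number of steps is called the rank. In simulated lists 20 of 20 steps were recovered. These lists held unrounded p-values and low ranks by construction, so the check does not cover deposited p-values that lack low ranks. Genes were named per family by support, lowest p-value, lowest Allen score, most ZD9 reads, category 0 under a mature name, or listing at 1 site in both libraries; of 70 such genes, the 41 met only by shared listing are described by examples. Members, lists and the call rule were chosen with earlier results of these data known. Alternatives were other p-value, category and Allen limits, mature names, unmerged isoforms and the shared range. In addition, 3 lines of ZD9 and 20 of XZ153 without content were not analysed here.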

Additional observations from a re-analysis of the deposited data

How the results depend on the processing

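The 1 supported pair of family and gene in ZD9 became 0 with a p-value of at most 0.01 and 0 with an Allen score of at most 4, and 2 when records were counted without merging isoforms. The 3 pairs in XZ153 became 0 with a p-value of at most 0.01, 0 in category 0 alone, 0 within the shared range, 1 with an Allen score of at most 4 and 5 with categories 0 to 4. The 91 sites in both lists became 36 under mature names alone. The other 7 of 16 alternatives stayed within 1.5 times. Each alternative selects other records by its construction. Depth is unknown in both libraries, ZD9 lacks values after the shared range, and 1 library per cultivar limits every comparison. No paired analysis was possible because each cultivar has 1 library and the labels give no replicate numbers.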

Other observations

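Beyond the shared range the ZD9 list gives only positions and small RNA names, without category, p-value or reads. Among these, 63 on 42 genes belong to the 4 families, 13 to miR397, 4 to miR398, 27 to miR408 and 19 to miR528. All 63 are listed in XZ153 at the same site, and they entered no count of categories, p-values, reads or shared sites. Among the member records with values this share was 18.0%. The share over all ZD9 records without values was not counted, so the match is not read as a trait of these families.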
